A study of Mus musculus with 24 samples.

Results

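Bone marrow-derived macrophages lacking the transcriptional co-regulator CITED2 (KO) were compared after treatment with lipopolysaccharide (LPS) and after treatment with interferon gamma (IFNg). The comparison took the 3 KO LPS libraries against the 3 KO IFNg libraries, 6 of the 24 RNA sequencing libraries of the series. It covered the genes whose value reached 1 in 3 or more of the 24 libraries, 18637 of the 43629 identifiers in the deposited table, of which 18163 had a read in the 6 libraries.

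All cells came from C57BL/6 mice at week 10 after birth and were macrophages grown in culture from bone marrow. Both compared groups share the KO genotype and differ in the agent given, and the same 3 untreated KO control libraries stand beside both agents as the level without either. The wild-type (WT) LPS and WT IFNg groups, also 3 libraries each, serve to ask whether the same contrast differed between genotypes. They also give the WT level of Cited2. These groups, the untreated WT control and the IL4-treated groups of both genotypes enter the fit that sets the spread behind all p-values. The labels give no dose or time of treatment, no account of how Cited2 was deleted, and no statement that replicates came from separate mice or cultures. The spread that the p-values rest on is thus the one between these samples, and it may be technical.

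LPS is a glycolipid of the bacterial outer membrane that is sensed by Toll-like receptor 4, whose adaptors MyD88 and TRIF activate NF-kB, AP-1 and IRF3 and, through secreted type I interferon, the transcription factor complex ISGF3. IFNg is a T and NK cell cytokine whose receptor signals through JAK kinases to gamma-activated sites (GAS) in target genes and raises IRF1, the class II transactivator CIITA and interferon-inducible GTPases. CITED2 has no DNA-binding domain and competes with transcription factors such as HIF-1 alpha for the coactivators CBP and p300.

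The promoters of 6 genes that stand for these routes are shown first, as the 200 bases before each RefSeq start on the plus strand of GRCm38.p6, from 5′ to 3′. Il6, Cxcl1 and Cxcl3 were much higher with LPS, and their capitals mark a kappa B element (GGGA, any base and TTTCC), the kind of sequence NF-kB binds. Gbp2, Irf8 and Irf1 were higher with IFNg. The capitals mark an interferon-stimulated response element (ISRE, GAAA, any 2 bases and GAAA) in Gbp2 and gamma-activated sites (TTCNNNGAA) in Irf8 and Irf1. The 6 were picked after the matches were seen.
Il6, chr5:30012914-30013113: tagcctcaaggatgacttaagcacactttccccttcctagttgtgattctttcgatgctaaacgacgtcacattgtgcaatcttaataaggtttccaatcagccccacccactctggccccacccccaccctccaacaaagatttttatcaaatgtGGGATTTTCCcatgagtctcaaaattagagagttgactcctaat
Cxcl1, chr5:90891045-90891244: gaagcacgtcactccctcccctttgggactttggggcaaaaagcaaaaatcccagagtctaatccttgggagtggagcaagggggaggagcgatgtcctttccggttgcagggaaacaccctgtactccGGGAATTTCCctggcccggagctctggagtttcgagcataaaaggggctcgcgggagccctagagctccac
Cxcl3, chr5:90785901-90786100: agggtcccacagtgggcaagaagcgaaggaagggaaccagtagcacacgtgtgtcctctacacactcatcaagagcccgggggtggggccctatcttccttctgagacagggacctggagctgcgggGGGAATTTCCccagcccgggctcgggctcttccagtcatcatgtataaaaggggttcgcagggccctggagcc
Gbp2, chr3:142620463-142620662: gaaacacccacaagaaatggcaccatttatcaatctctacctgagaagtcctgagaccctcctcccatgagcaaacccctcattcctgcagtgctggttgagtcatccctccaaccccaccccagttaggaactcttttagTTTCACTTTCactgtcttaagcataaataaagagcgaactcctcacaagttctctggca
Irf8, chr8:120736158-120736357: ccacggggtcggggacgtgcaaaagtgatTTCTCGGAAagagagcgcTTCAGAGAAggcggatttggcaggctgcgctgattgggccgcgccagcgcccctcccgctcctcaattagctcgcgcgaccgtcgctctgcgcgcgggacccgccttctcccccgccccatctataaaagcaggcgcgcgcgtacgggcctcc
Irf1, chr11:53769814-53770013: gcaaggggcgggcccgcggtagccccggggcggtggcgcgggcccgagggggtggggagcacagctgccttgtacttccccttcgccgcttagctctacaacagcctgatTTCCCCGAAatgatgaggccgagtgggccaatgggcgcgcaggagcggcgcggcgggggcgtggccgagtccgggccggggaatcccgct

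The kappa B match of Il6 lay 44 to 35 bases before the start, that of Cxcl1 71 to 62 and that of Cxcl3 73 to 64. The Gbp2 match lay 59 to 50 bases before the start and has the ISRE letters on the opposite strand. Irf8 held 2 GAS matches, 171 to 163 and 153 to 145 bases before the start, and Irf1 held 1, 90 to 82 bases before it. The motifs were searched on both strands in RefSeq windows of 250 bases before to 50 after each start. Eligible genes were called with and without KO LPS replicate 1, had LPS and IFNg values that did not overlap and a mean of at least 100 in either group. Predicted genes, pseudogenes, immunoglobulin segments and small RNA genes were left out. Of the 50 eligible genes with the largest positive difference, 35 had 43 such windows, and 5 of these (11.6%) held the kappa B letters, in Cxcl1, Cxcl2, Cxcl3, Il6 and Slc6a12. Of the 50 eligible genes with the largest negative difference, 38 had 55 windows and none held them. The share was 0.411% of all 32851 windows and 0.482% of the 15149 windows of tested genes. The AP-1 letters TGANTCA stood in 18.6% and 5.45% of the windows of these sets, against 7.81% of all and 5.604% of tested-gene windows. The ISRE letters stood in 9.30% and 9.09%, against 3.44% of all and 3.35% of tested-gene windows. The GAS letters stood in 11.6% and 5.45%, against 8.30% and 7.02%. The sets were chosen by their differences, so these shares are a description, and a match is not a measured binding site.

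Values are normalised read counts, which the authors made by dividing each library's gene-level reads by 1 factor. The 6 libraries held 1478507 to 60993964 reads. KO LPS replicate 1 was the shallowest, and the other 5 held at least 15893968. In KO LPS replicate 1 a single read stands at 23.6 in value and 3 reads at 70.9, and it held no read of 7441 tested genes, where the other 5 libraries lacked 1975 to 3593. Where leaving it out changed a count or moved a value much, both are given below, and "in both fits" means called with and without it. Read floors cover counting error only, and the 95% intervals come from the spread between libraries in the fit.

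The gene targeted in these cells checks the labels. Cited2 (ENSMUSG00000039910; GRCm38 chromosome 10, 17723218 to 17725674) had normalised read counts of 94.5, 21.5 and 30.04 in the KO LPS libraries and 11.9, 10.2 and 18.7 in the KO IFNg libraries. All 6 lay far below the WT groups, at 3593 ± 529 with LPS and 2438 ± 165 with IFNg (SD, n = 3). The KO LPS value of replicate 1 rests on 4 reads. The residual level was called higher with LPS, by 1.52 ± 0.34 on the log2 scale (SE of the fit) with that library and by 0.90 without it, and the call ended in a fit of the 6 libraries alone. Lyz2, lysozyme of myeloid cells, read 1087, 1242 and 1146 with LPS and 341, 402 and 395 with IFNg, a difference of 1.61 ± 0.07, and its near-identical neighbour Lyz1 makes the counting uncertain.

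The macrophage genes Csf1r, the receptor of the growth factor that maintains macrophages, and Cd68, a lysosomal protein of macrophages, were present in both groups. Cd68 read 47463, 48123 and 50746 with LPS and 43662, 36354 and 41155 with IFNg. Csf1r had normalised read counts of 29508, 32936 and 35237 with LPS and 49378, 46667 and 47881 with IFNg, and the LPS values lay below. In bulk libraries, fewer cells of a type and less RNA per cell cannot be told apart. The summed level of 29 macrophage identity genes ranged from 691630 to 744857 in the LPS libraries and from 668774 to 683712 in the IFNg libraries.

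LPS and IFNg differed in many genes of these macrophages. Differences were tested with limma on log2(value + 1) over all 24 libraries, and calls were made where the p adjusted by Benjamini and Hochberg fell below 0.05. Of the 18637 genes, 3682 (19.8%) were higher and 4300 (23.1%) lower with LPS than with IFNg. With and without KO LPS replicate 1, 3440 (18.5%) were called higher and 3577 (19.2%) lower in both fits. A called log2 difference of 1 or more was seen for 1556 genes higher (8.35%) and 1989 lower (10.7%), and in both fits for 1423 (7.64%) and 1310 (7.03%). The 3 LPS values lay wholly above the 3 IFNg values for 3610 genes (19.4%) and wholly below them for 4239 (22.7%). The median log2 difference of all genes was -0.08, and 0.01 without KO LPS replicate 1.

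**Figure D1:**
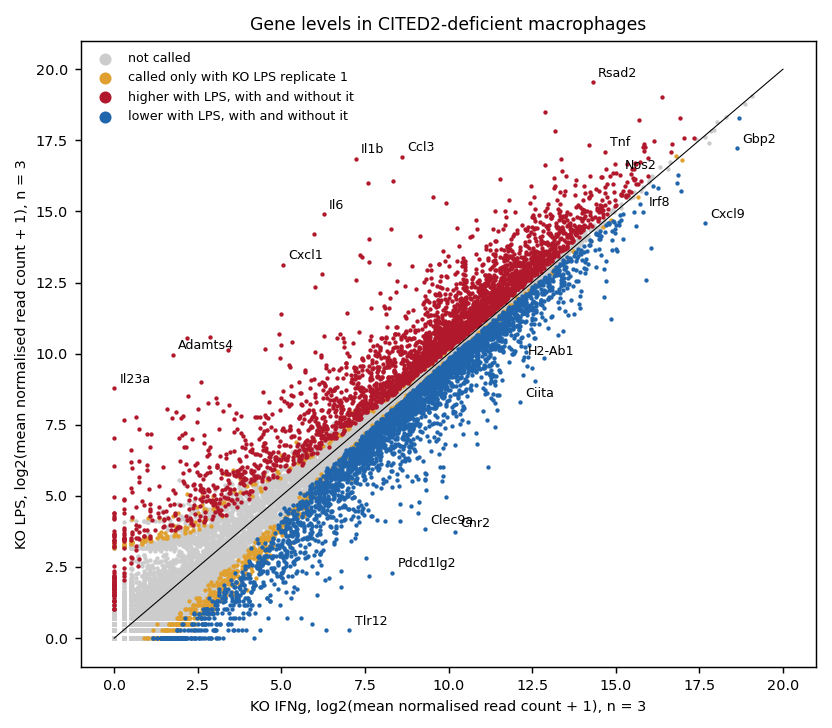
Mean level of each of 18637 genes in KO IFNg (x axis) and KO LPS (y axis) macrophages, as log2 of the mean normalised read count of 3 libraries plus 1, with a line of equal level. Red points were called higher with LPS and blue lower, in fits with and without KO LPS replicate 1, and orange points were called only with that library. Cytokine genes such as Il1b and Il6 lie far above the line, and Cxcl9, Ciita and Cnr2 below it.

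The cytokine genes that NF-kB drives were the group with the largest difference. Of 25 measured, 24 were higher with LPS, with a median log2 difference of 3.49 where that of all genes was -0.08, and all 24 were also called without KO LPS replicate 1. The exception was Vegfa, the vascular growth factor. The LPS and IFNg values of each of the 3 cytokines described next did not overlap.
Il1b, the inflammasome-processed interleukin 1 beta (ENSMUSG00000027398; GRCm38 chromosome 2, 129364570 to 129371139), had normalised read counts of 108747, 128230.0 and 117603 with LPS and 159, 155 and 128 with IFNg. That is a 800.3-fold higher mean and a log2 difference of 9.64 ± 0.32 (adjusted p = 7.6e-18). In untreated KO cells Il1b read 15.3, 9.41 and 26.3, so the IFNg libraries sat much nearer to the control than to the LPS level.
Il6 (GRCm38 chromosome 5, 30013114 to 30019981), the acute-phase cytokine whose promoter is printed above, was at 27547, 33324 and 30806 with LPS and at 71.2, 75.4 and 80.3 with IFNg, 404-fold apart (log2 8.64 ± 0.48, adjusted p = 1.7e-13). Il1a, the alarmin relative of Il1b, was at 62323, 71135 and 64425 with LPS against 171, 202 and 198 with IFNg, 346-fold apart. Neither gene's IFNg values came within 100-fold of the LPS values.

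Tnf, tumour necrosis factor, differed less than Il1b, Il6 and Il1a, and its IFNg values lay far above the untreated ones. Its normalised read counts were 132089, 142400.0 and 145505 with LPS, 26965, 24783 and 26095 with IFNg and 117, 106 and 142 in untreated cells. The log2 difference between the agents was 2.43 ± 0.09 (adjusted p = 4.9e-17), a 5.4-fold higher mean with LPS. Il12b, the shared p40 subunit of interleukins 12 and 23, followed the same order, at 21381, 25239 and 23292 with LPS, 4281, 5007 and 4779.5 with IFNg and 2.45, 2.09 and 1.75 untreated (log2 2.31 ± 0.48).
The partner subunits of p40 separated the agents far more. Il23a, the p19 subunit that makes interleukin 23, had 425, 405 and 483 with LPS and no read in any KO IFNg library, at least 424-fold higher when IFNg is set at 3 reads over the group. Il12a, the p35 subunit that makes interleukin 12, had 803, 1242 and 1304 with LPS and 5.08, 16.6 and 6.69 with IFNg (log2 6.86 ± 0.56). Il10, the anti-inflammatory interleukin, was at 1418, 1573 and 1509 with LPS, while its IFNg values of 3.39, 1.92 and 5.35 overlapped those of untreated cells, 6.74, 4.18 and 0.877.

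Other genes with large differences were of several kinds. Edn1, the vasoconstrictor endothelin, was at 18828 ± 1190.0 with LPS and 61.9 ± 13.8 with IFNg (SD, n = 3 per group here and below), and Adamts4, an aggrecan-cleaving protease, at 998 ± 89.5 and 2.35 ± 2.39. Plet1, a surface protein of epithelial progenitors, was at 204 ± 69.4 with LPS and had 1 read in all IFNg libraries together. Ifnb1, interferon beta, had no read in untreated cells, 11.9, 24.9 and 21.4 with IFNg and 236, 218 and 203 with LPS (log2 3.49 ± 0.43). Il27 and Il15, cytokines that act on T and NK cells, differed by 3.44 ± 0.23 and 3.52 ± 0.08. Vegfa was instead 2.37-fold higher with IFNg, with values of 591, 424 and 374 under LPS and 1211, 1041 and 1040.0 under IFNg, all below the untreated 1811 ± 63.6.

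Chemokine genes that attract neutrophils and monocytes were likewise higher with LPS in 14 of 16 cases, and 2 were lower (1 of these without KO LPS replicate 1), with a median log2 difference of 3.06. Cxcl1, a CXCR2 ligand that attracts neutrophils, read 8363, 9554 and 8949 with LPS and 28.8, 34.5 and 32.1 with IFNg (log2 8.09 ± 0.31, adjusted p = 1.3e-16). Its relatives Cxcl2 and Cxcl3 differed by 5.97 ± 0.12 and 7.87 ± 0.66.
Ccl3 and Ccl4, the macrophage inflammatory proteins, separated the agents in another way, with IFNg values near the untreated level. Ccl3 was at 123017, 120143 and 127862 with LPS, 412, 371 and 388 with IFNg and 552, 600.1 and 560.4 untreated, so that the IFNg values lay below the control values. Ccl4 was at 69018 ± 4115, 321 ± 20.01 and 278 ± 5.8 in the same order. The CCR2 ligands Ccl2 and Ccl7, which recruit monocytes, differed by 5.38 ± 0.15 and 6.11 ± 0.23, and Ccl5 by 2.22 ± 0.16. The member lower with LPS in both fits was Cxcl16, the ligand of CXCR6, at -0.16 ± 0.04.

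**Figure D2:**
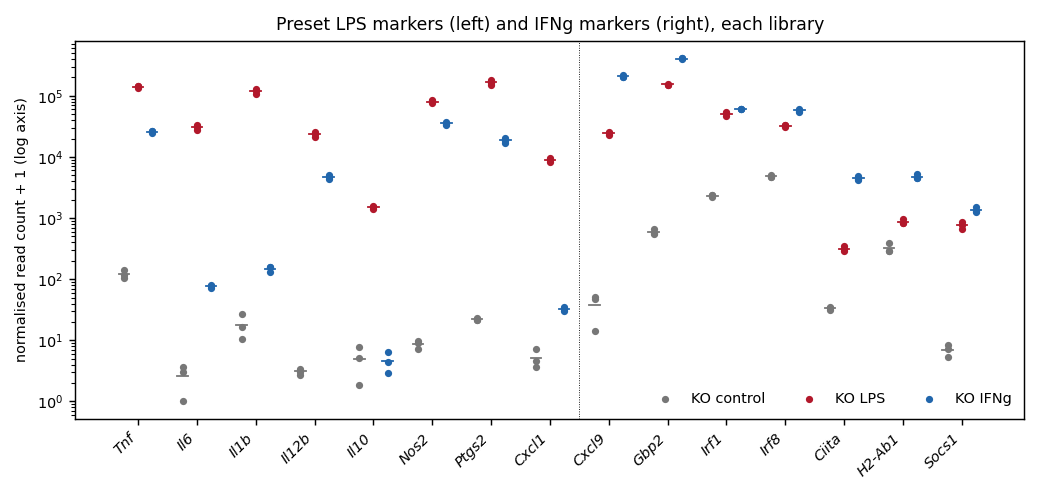
Normalised read count plus 1, on a log axis, of 8 LPS marker genes (left of the dotted line) and 7 IFNg marker genes (right) in the 3 libraries each of KO control (grey), KO LPS (red) and KO IFNg (blue), with a bar at each mean. Il6, Il1b, Il10 and Cxcl1 lie far higher with LPS, Cxcl9, Ciita and H2-Ab1 higher with IFNg, and the Irf1 values lie close together.

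Nos2, the inducible nitric oxide synthase, was at 75601, 81024 and 83856 with LPS, 37886, 33795 and 35056 with IFNg and 8.58, 6.27 and 7.89 untreated, 2.25-fold apart between the agents (log2 1.17 ± 0.27, adjusted p = 8.4e-04). Irg1, which makes itaconate, was at 317130.0 ± 14037 and 124770.0 ± 633, 2.54-fold apart. Ptgs2, the inducible cyclooxygenase, was at 165630.0 ± 16849 with LPS and 18622 ± 1860.3 with IFNg, 8.89-fold apart, and Ptges, which acts after it in prostaglandin E2 synthesis, differed by 2.9 ± 0.24. Slc7a2, which carries arginine into the cell, differed by 3.42 ± 0.09, and Gch1, which starts synthesis of the Nos2 cofactor tetrahydrobiopterin, by 1.35 ± 0.06. Across the arginine and nitric oxide list 7 of 15 genes were higher and 5 lower (4 in both fits), and across the prostaglandin and leukotriene list 10 of 17 were higher and 5 lower (8 and 4 in both fits).

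The genes of the NF-kB machinery differed less than the cytokine genes. Of 22 genes for subunits and feedback inhibitors 19 were higher with LPS, none was lower and 3 were not called, with a median log2 difference of 1.36 (18 of the 19 were called in both fits). The subunit genes Nfkb1 and Rel differed by 1.34 ± 0.04 and 1.59 ± 0.10. The inhibitor gene Nfkbia was at 30524, 28905 and 29999 with LPS and 6743, 6724 and 6712 with IFNg, against 564 ± 23.9 untreated, and the ubiquitin-editing inhibitor gene Tnfaip3 differed by 2.15 ± 0.05. Nfkbiz, the nuclear regulator that Il6 transcription needs, had the largest difference of the list, at 26734 ± 1121 against 1818 ± 111 (log2 3.88 ± 0.07). Zc3h12a, an RNase that degrades Il6 messenger RNA, differed by 2.83 ± 0.11. Relb and Cyld, at 0.23 and -0.09, were among the 3 not called.
Inhibitors of other signals were also more often higher than lower. Of 18 cytokine signalling inhibitors 12 were higher with LPS and 3 lower (2 in both fits). Dusp1, the phosphatase of p38 and JNK, was at 2811, 2566 and 2884 with LPS, 124, 127 and 120.5 with IFNg and 380.5, 386 and 326 untreated, so its IFNg values lay below the control. Socs3, which restrains gp130 signalling, differed by 1.51 ± 0.10, whereas Socs1, which restrains the IFNg receptor, was higher with IFNg (779.6, 656 and 849.9 with LPS, 1493, 1326 and 1238 with IFNg, log2 -0.83 ± 0.22).

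Type I interferon and antiviral genes were all higher with LPS than with IFNg, 35 of 35 in both fits, with a median log2 difference of 1.82. Rsad2, the antiviral enzyme viperin, was at 715113, 796663 and 776929 with LPS, 19367, 20518 and 21103 with IFNg and 785, 794 and 1010.2 untreated (log2 between the agents 5.23 ± 0.09, adjusted p = 4.1e-23). Cmpk2, its neighbour on chromosome 12, was 48.9-fold higher with LPS, and Ifit1, which binds foreign RNA, differed by 4.64 ± 0.10. The RNA sensor genes Ifih1 and Ddx58 differed by 3.48 ± 0.07 and 3.01 ± 0.06, the GTPase gene Mx1 by 3.75 ± 0.10 and the ubiquitin-like modifier gene Isg15 by 2.94 ± 0.08.
The smallest difference in the list was that of Zbp1, a sensor of Z-form nucleic acid, with 23743, 24562 and 24586 with LPS and 19546, 18169 and 19446 with IFNg (log2 0.35 ± 0.07). Components of the interferon signal itself were also higher with LPS, Irf7 by 1.85 ± 0.11, Stat2 by 1.24 ± 0.06, Irf9 by 1.13 ± 0.06 and the receptor gene Ifnar1 by 2.12 ± 0.05. Members such as the Oas1 and Ifit3 copies are near-identical, so their reads may be split between them.

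Among interferon-linked regulators the order depended on the gene, and 12 of 20 IRF, STAT and JAK genes were higher with LPS and 4 lower (3 in both fits). Irf1 was slightly higher with IFNg, with 47581, 53311 and 51567 under LPS and 60894, 61592 and 61882 under IFNg (log2 -0.28 ± 0.06, adjusted p = 2.6e-04), and all LPS values lay below all IFNg values. Irf8, a lineage factor of macrophages and dendritic cells, was at 33666, 30370.3 and 33398 with LPS and 61769.7, 54603 and 56440.1 with IFNg, 1.77-fold higher with IFNg. Jak2 and Stat5a were higher with LPS, by 2.15 ± 0.07 and 3.48 ± 0.08.

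The 3 chemokines that bind CXCR3 on T cells split between the agents. Cxcl9 (ENSMUSG00000029417; GRCm38 chromosome 5, 92321347 to 92328079) had normalised read counts of 25704, 25063 and 22935 with LPS and 205353, 206580.0 and 215884 with IFNg, 8.52-fold higher with IFNg (log2 -3.09 ± 0.30, adjusted p = 5.7e-09). Its neighbours on chromosome 5 went the other way. Cxcl10 was at 291488, 307453 and 320577 with LPS and 51199, 54511 and 52439.5 with IFNg, and Cxcl11 at 2977, 2803 and 2628 and 625, 672 and 656, log2 differences of 2.54 ± 0.22 and 2.1 ± 0.33. No LPS value overlapped an IFNg value for any of the 3.

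Interferon-inducible GTPases, which attack the vacuoles of intracellular microbes, split as well. Of 17 members 8 were lower and 6 higher with LPS, and 3 were not called (7 lower and 6 higher in both fits). Gbp2 was at 152288, 158266 and 150021 with LPS and 393160.0, 409771 and 416624 with IFNg, 2.65-fold higher with IFNg (log2 -1.4 ± 0.10). Gbp4 and Gbp8 differed by -2.33 ± 0.26 and -4.01 ± 0.28, and Tgtp1 and Iigp1 by -3.04 ± 0.45 and -1.26 ± 0.23. On the other side, Gbp5, which promotes inflammasome assembly, was at 163794, 176462 and 168177 with LPS and 103505, 106434 and 105696 with IFNg (log2 0.69 ± 0.12), and Gbp3 and Igtp differed by 0.64 ± 0.08 and 0.48 ± 0.07. Near-identical copies in these families make single members uncertain.

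Genes of antigen presentation on MHC class II were lower with LPS than with IFNg. Of 16 genes 12 were lower with LPS, none was higher and 4 were not called, with a median log2 difference of -1.61. Ciita, the transactivator on which class II expression depends, was at 284, 346 and 309 with LPS, 4869, 4191 and 4326 with IFNg and 33.1, 33.5 and 30.7 untreated, 14.3-fold higher with IFNg (log2 -3.83 ± 0.09, adjusted p = 3.5e-20). LPS values thus lay above the untreated ones and far below those with IFNg.
The beta chain gene H2-Ab1 was at 827, 832 and 974 with LPS and 5261, 4477 and 4494 with IFNg, against 283, 384 and 287 untreated. H2-Aa and Cd74, the invariant chain, were 4.22-fold and 3.37-fold higher with IFNg. H2-DMa, which loads peptides, was at 165, 161 and 190.2 with LPS, near its untreated values of 139, 144 and 143, and at 2951, 2532 and 2621 with IFNg (log2 -3.97 ± 0.09). Ctss, the protease that trims the invariant chain, was not called, at 232953 ± 8189.8 and 234174 ± 7814 (95% interval of the log2 difference -0.13 to 0.11).
MHC class I genes differed less. Of 20 class I and immunoproteasome genes 12 were higher and 4 lower with LPS (12 and 2 in both fits), with a median of 0.20. H2-K1 was at 59453 ± 3961 with LPS and 57706 ± 757 with IFNg (interval -0.08 to 0.16), and B2m, the light chain, had an interval of -0.17 to 0.08. The trimming peptidase gene Erap1 differed by -0.69 ± 0.09 and the non-classical gene H2-T22 by 1.4 ± 0.06.

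**Figure D3:**
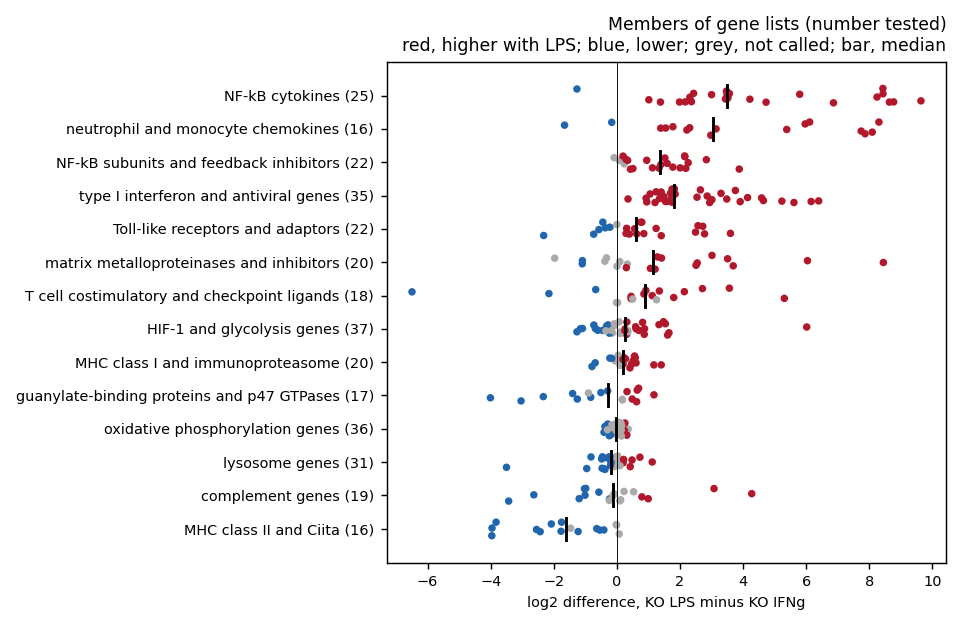
Log2 difference, KO LPS minus KO IFNg, of each member of 14 gene lists, with the number tested in parentheses. Red members were called higher with LPS, blue lower and grey not called, and the bar is the median: 3.49 for NF-kB cytokines, 1.82 for type I interferon genes and -1.61 for MHC class II.

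The largest differences towards IFNg were in genes not yet described. Several had no read in KO LPS replicate 1, so the value without that library follows each. Cnr2, the cannabinoid receptor of immune cells, was at 23.6, 10.5 and 2.5 with LPS and 1113, 1206 and 1199 with IFNg, log2 -6.88 ± 0.37 (-7.53 without KO LPS replicate 1). Untreated cells had 1227, 1128 and 1108, so that the IFNg values overlapped the control and the LPS values were low. Dna2, a nuclease of DNA replication and repair, was also present without treatment, at 616 ± 20.6 against 544 ± 20.5 with IFNg and 0, 26.4 and 33.8 with LPS (log2 -5.79, or -4.14 without). The sorting nexin gene Snx24 was at 768 ± 2.37 untreated, 962 ± 35.6 with IFNg and 29.8 ± 8.42 with LPS (log2 -5.0, or -4.86 without).
Others had few or no reads without treatment and with LPS. Tlr12, the receptor of parasite profilin, had 1 read in all 3 KO LPS libraries, 119, 141 and 129.8 with IFNg and 0, 0 and 1.75 untreated (log2 -6.8, or -6.68 without). Pdcd1lg2, the PD-1 ligand PD-L2, was at 0, 8.0 and 3.75 with LPS, 271, 341 and 337 with IFNg and 6.13, 6.27 and 1.75 untreated (log2 -6.5, or -5.59 without). Vdr, the vitamin D receptor, was at 70.9, 3.08 and 2.5, 379.5, 389.9 and 355 and 8.58, 5.23 and 0.877 in the same order, with 3 reads behind the highest LPS value (log2 -5.22, or -6.63 without).
A further pattern had the control between the agents. Klhl6, an adaptor of a ubiquitin ligase, was at 0, 90.4 and 98.9 with LPS, 2189, 2448 and 2305 with IFNg and 611 ± 28.9 untreated, and its log2 difference of -6.79 was -4.6 without KO LPS replicate 1. Ston2, Igsf11, Eml6 and Gpr34 had the same order, with log2 differences of -6.01, -5.43, -5.4 and -5.3, or -5.21, -3.87, -3.67 and -4.55 without that library. The Klhl6 and Eml6 calls ended in a fit of the 6 libraries alone.

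Some genes raised by both agents were not called different between them. Of 149 genes whose mean was at least 100 and at least 16 times the untreated KO mean in both groups, 98 were higher and 24 lower with LPS and 27 were not called. The 6 with the smallest difference include Cd86, the costimulatory ligand of CD28, at 7277, 6680.3 and 6858 with LPS and 6782, 7282 and 6944 with IFNg, against 117 ± 5.12 untreated (log2 -0.01 ± 0.09, 95% interval -0.21 to 0.18). Tgm2, a transglutaminase, was at 21977 ± 910.3 and 21809 ± 1714 (interval -0.16 to 0.18), and Icosl, the ICOS ligand, at 1292 ± 30.1 and 1272 ± 30.9 (-0.15 to 0.20). Fam26f, Mthfd2, an enzyme of mitochondrial folate metabolism, and Pilra, an inhibitory receptor, had intervals of -0.43 to 0.39, -0.19 to 0.05 and -0.34 to 0.63. The 6 genes were picked for their small difference, so the intervals are a description and do not show equal levels.
Other ligands for T cells more often differed between the agents. Of 18 costimulatory and checkpoint ligands 11 were higher with LPS and 3 lower. Cd80, the second CD28 ligand, was at 874, 1150.1 and 924 with LPS and 197, 235 and 234 with IFNg (log2 2.14 ± 0.13), and Tnfsf4, the OX40 ligand, differed by 5.31 ± 0.46. Cd40 and Cd274, which encodes PD-L1, were each 1.37-fold higher with LPS, and Slamf8 was 4.45-fold higher with IFNg.

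Sensors and receptors differed gene by gene. Of 22 Toll-like receptor genes and adaptors 15 were higher with LPS and 6 lower. Cd14, the LPS co-receptor, was at 40777, 43817 and 46791 with LPS, 3768, 3494 and 3569.6 with IFNg and 4881, 4825 and 4687 untreated (log2 3.6 ± 0.06), and the endosomal RNA sensor genes Tlr3 and Tlr7 differed by 2.78 ± 0.09 and 2.49 ± 0.08. Tlr9, the sensor of unmethylated DNA, went the other way, at 165, 319 and 380.5 with LPS and 1459, 1264 and 1372 with IFNg (log2 -2.32 ± 0.17, or -1.97 without KO LPS replicate 1). Of 24 cytokine receptor genes 10 were higher and 12 lower. Tnfrsf1b, the TNF receptor 2, was 8.06-fold higher with LPS and Il15ra 6.72-fold, while the interleukin 6 receptor genes Il6ra and Il6st were 3.84-fold and 2.2-fold higher with IFNg. Of 6 Fc gamma receptor genes 3 were higher and 2 lower. The activating receptor genes Fcgr4 and Fcgr3 differed by -1.67 ± 0.06 and -1.43 ± 0.04, and the inhibitory receptor gene Fcgr2b by 0.89 ± 0.05.
In the inflammasome list 12 of 18 genes were higher and 4 lower with LPS. Nlrp3, the sensor of membrane damage, was at 28384 ± 1639.9 with LPS and 5738 ± 34.5 with IFNg (log2 2.3 ± 0.06), and Nlrp1b, the sensor of anthrax lethal factor, at 47.6 ± 20.8 and 537 ± 53.3 (log2 -3.58 ± 0.23). Of 19 complement genes 4 were higher and 8 lower. The C5a receptor genes C5ar1 and C5ar2 were higher with LPS by 3.08 ± 0.05 and 4.27 ± 0.20, with IFNg values below the untreated ones, and the C1q chain gene C1qa was 1.99-fold higher with IFNg.

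Among matrix proteases and their inhibitors 12 of 20 were higher with LPS and 2 lower, with a median of 1.14. Mmp13, a collagenase, was at 73469 ± 2339 with LPS and 9114 ± 702 with IFNg. Plau, urokinase, was 2.14-fold higher with IFNg. Immediate early genes were higher in 15 of 26 cases (14 in both fits) and lower in 6. Nr4a3, an orphan nuclear receptor, led them at 2667 ± 120.2 with LPS and 30.5 ± 9.44 with IFNg, and Klf2 differed by 2.9 ± 0.20, whereas Egr3 differed by -3.51 ± 0.65 (-2.56 without KO LPS replicate 1).

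Metabolic lists were mixed. In the HIF-1 and glycolysis list, whose factor competes with CITED2 for CBP and p300, 17 of 37 genes were higher with LPS and 10 lower (17 and 8 in both fits), with a median of 0.25. Pfkfb3, which drives glycolytic flux, was at 13915, 16334 and 16429 with LPS and 4881, 4886 and 5071 with IFNg, 3.15-fold apart, and the hexokinase gene Hk1 was 2.78-fold higher with LPS. Adm, adrenomedullin, was at 211 ± 8.42 with LPS and 2.31 ± 0.536 with IFNg. Hif1a itself was slightly lower with LPS, at 16136, 16444 and 15514 against 17840.2, 20862 and 19764 (log2 -0.28 ± 0.08), and Bnip3, a mitophagy gene, was 2.21-fold higher with IFNg. Of 14 measured genes of CITED2 and its partners 7 were higher and 2 lower. The coactivator genes Crebbp and Ep300 differed by 0.43 ± 0.06 and -0.24 ± 0.06.
Lipid genes were mixed too. Of 30 PPARg, LXR and lipid handling genes 13 were higher and 12 lower. Ch25h, which makes 25-hydroxycholesterol, was at 4347, 4244 and 5070.3 with LPS and 398, 345 and 288 with IFNg (log2 3.73 ± 0.43). The cholesterol exporter gene Abca1 was 2.63-fold higher with LPS and Abcg1 3.04-fold higher with IFNg, and the LXR target gene Mylip and the LXR alpha gene Nr1h3 were 6.72-fold and 1.94-fold higher with IFNg. Lysosome genes were lower in 17 of 31 cases (15 in both fits) and higher in 6, with a median of -0.18. Tfeb, the regulator of lysosome biogenesis, was at 70.9, 42.4 and 52.6 with LPS and 730.2, 527 and 628 with IFNg (log2 -3.5 ± 0.20), while the cathepsin gene Ctsl was 2.17-fold higher with LPS. Of 36 oxidative phosphorylation genes 27 were not called, 4 were higher and 5 lower (2 and 2 in both fits).
The remaining metabolic and stress lists showed counts in both directions. Cholesterol biosynthesis had 7 higher and 9 lower of 23 (7 and 8 in both fits) and the TCA cycle list 7 and 4 of 22 (7 and 2). The NRF2 list had 8 and 8 of 21, the unfolded protein and ATF4 list 8 and 9 of 31 (7 and 9), and the IL-4 alternative activation list 9 and 7 of 22 (9 and 6). Slc7a11, the cystine transporter, differed by 3.29 ± 0.10 and the chaperone gene Hspa5 by 1.42 ± 0.06, while the ATF4 targets Trib3 and Asns were 3.04-fold and 2.21-fold higher with IFNg.

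Identity and cycling genes differed in part. Of 29 macrophage identity genes 12 were higher and 11 lower with LPS (10 and 11 in both fits). Ccr2, the receptor that brings monocytes into tissue, was at 23.6, 39.98 and 43.8 with LPS and 632, 626 and 653 with IFNg (log2 -4.16 ± 0.15), and Cebpa, a myeloid lineage factor, at 236, 150.1 and 190.2 and 1508, 1589.8 and 1467 (log2 -3.0 ± 0.10). Cebpb and Maf were higher with LPS, by 1.5 ± 0.11 and 1.18 ± 0.06. Of 37 cell cycle genes 12 were higher (11 in both fits), 4 lower and 21 not called. Mki67, the proliferation antigen, was at 3804, 3876 and 3744 with LPS, 649, 648 and 653 with IFNg and 92.5, 92.01 and 110.5 untreated (log2 2.55 ± 0.09). Top2a, another gene of dividing cells, was highest in untreated cells, at 189, 137 and 133 with LPS, 107, 118 and 124 with IFNg and 230.4, 210.2 and 224 untreated, and its call of 0.37 ± 0.13 ended without KO LPS replicate 1.

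Markers of other cell types were summed in each library. The summed level of the neutrophil list ranged from 8533 to 9143 with LPS and from 6263 to 6589 with IFNg, with 5 of 15 tested markers higher (4 in both fits), 1 lower and Ly6g without a read. Lcn2, a secreted siderophore binder, was among the higher, by 2.45 ± 0.18, while the lowest log2 difference of this list was -2.93. The dendritic cell list ranged from 8080 to 9640 with LPS and from 6094 to 6564 with IFNg, with 2 of 7 higher, 2 lower, and Flt3 and Siglech without a read. Log2 differences of its tested members ran from -5.66 to 3.16. The lower pair were Clec9a, at 23.6, 9.84 and 6.26 with LPS, 605, 633 and 645 with IFNg and 3.06, 5.23 and 10.5 untreated, and Xcr1 (-3.88 ± 0.55), both markers of cross-presenting dendritic cells, and the factor gene Zbtb46 was not called (-1.16 ± 0.82).
The fibroblast list ranged from 678 to 836 with LPS and from 374 to 442 with IFNg, with 5 of 10 higher and 1 lower (none lower in both fits), and Col1a1 at 58.2 ± 17.1 and 17.1 ± 4.19. The mast cell and basophil list ranged from 662 to 1058 and from 115 to 124, with 2 of 8 higher, Hdc and Kit. Hdc, the histamine-forming enzyme, made up most of that sum at 775 ± 184 and 36.6 ± 9.74, while Cma1, Mcpt4 and Tpsb2 had no read. The B cell list ranged from 2741 to 2905 and from 1686 to 1750, of which Blnk, also an adaptor of macrophages, was 2772 ± 88.9 and 1682 ± 35.2 and the 1 called higher of 8, with Pax5, Vpreb3, Igll1, Fcer2a and Cr2 without a read.
The T and NK cell list ranged from 1134 to 1351 and from 924 to 1023, and its 2 calls of 15, Cd3d and Cd3g lower with LPS, ended without KO LPS replicate 1 and under other alternatives. No erythroid marker was called, of 4 tested, and the sum was at most 8.76, with 8 of 12 markers without a read. Of 7 mitochondrially encoded genes 1, mt-Nd4, was called, at 0.22 ± 0.08, and its call ended without KO LPS replicate 2 or KO IFNg replicate 1 (log2 0.19 and 0.20). The part of these cell types in the results above was not tested.

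The same contrast in WT macrophages differed for a limited number of genes. WT LPS against WT IFNg called 3586 genes higher (19.2%) and 3544 lower (19.0%). Of the 3440 genes called higher in KO cells in both fits, 2777 were also higher in WT, 80.7% of the KO and 77.4% of the WT calls. Of the 3577 called lower, 2615 were lower in WT, 73.1% and 73.8%. Across 9408 genes with a mean of at least 100 in any of the 4 groups, the log2 differences of the genotypes had a Pearson r of 0.92 (0.94 without KO LPS replicate 1), a description across genes, which are not independent replicates.
The difference between the genotypes was tested directly, as the LPS against IFNg log2 difference in KO minus that in WT. It was called positive for 704 genes (3.78%) and negative for 686 (3.68%), together 7.46% of genes, and for 648 (3.48%) and 599 (3.21%) in both fits. Without KO LPS replicate 2 the negative count was 1073. Of the 648 and 599, 43 and 34 were called in opposite directions in the 2 genotypes, or 42 and 26 where the KO call also had to hold without KO LPS replicate 1. A further 235 and 195 were higher with LPS in both, and 162 and 185 lower with LPS in both.

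**Figure D4:**
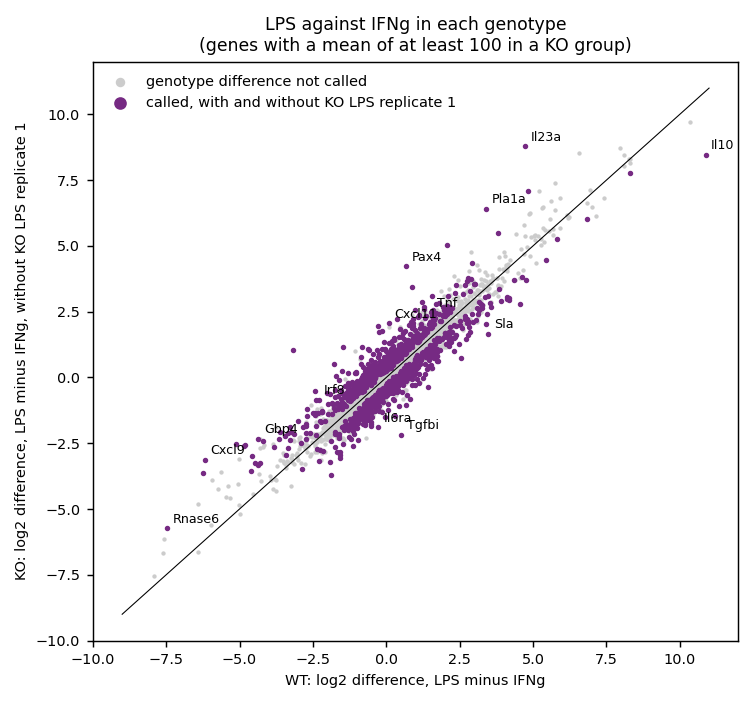
Log2 difference, LPS minus IFNg, in WT (x axis) and in KO macrophages without KO LPS replicate 1 (y axis), for genes with a mean of at least 100 in a KO group, with a line of equal difference. Purple genes had a genotype difference called with and without that library. Il23a, Pla1a and Cxcl9 lie above the line and Il10, Sla and Tgfbi below it.

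Several interferon-inducible genes stood closer together under the 2 agents in KO than in WT cells. Cxcl9 had WT values of 4859, 4216 and 5902 with LPS and 339312, 374260.0 and 370960.0 with IFNg, 72.4-fold higher with IFNg, against 8.52-fold in KO. The genotype difference was 3.1 ± 0.43 on the log2 scale (adjusted p = 2.6e-05). KO LPS values lay above WT LPS values, and KO IFNg values below WT IFNg values.
Irf8 was 4.94-fold higher with IFNg in WT, at 7757, 7449 and 7357 with LPS and 37819.9, 36114 and 37519 with IFNg, and 1.77-fold in KO (genotype difference 1.48 ± 0.08, adjusted p = 4.8e-12). Irf1 followed, 2.09-fold in WT and 1.21-fold in KO (0.79 ± 0.08), with WT LPS values of 28217, 28960.5 and 29552 and no such gap among IFNg values, 60354 ± 1159 in WT and 61456 ± 508 in KO. Gbp2 differed by 0.59 ± 0.14. Against 3.78% positive and 3.68% negative over all genes, the genotype difference was positive for 7 of the 17 GTPase genes and negative for none. Among the 7 were Gbp4 (2.02 ± 0.36) and Iigp1 (1.44 ± 0.33).
Not all IFNg targets shared this. Ciita had a genotype difference of 0.13 ± 0.13 (adjusted p = 0.64) and H2-Ab1 of -0.25 ± 0.14 (adjusted p = 0.34), neither called, and of 16 MHC class II genes none was positive and 1 negative. Cxcl11 was nearly level in WT, at 1561, 1936 and 2605 with LPS and 1846, 2021 and 1699.5 with IFNg, and 4.31-fold higher with LPS in KO (genotype difference 2.0 ± 0.47, adjusted p = 0.0071).

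Among the 25 cytokine genes the genotype difference was positive for 5 (4 in both fits) and negative for 2, against 3.78% and 3.68% of all genes. Il23a was at 36.7, 31.7 and 28.6 with LPS in WT, below all KO LPS values, and at 0.897, 0 and 0 with IFNg (genotype difference 4.03 ± 0.56, adjusted p = 2.7e-05). With 1 read over the WT IFNg libraries and none in KO IFNg, this size depends on the pseudocount, and the call ended with edgeR and DESeq2. Ifnb1 differed by 2.61 ± 0.61, from WT values of 20.4, 29.8 and 44.03 with LPS and 14.3, 18.8 and 14.6 with IFNg. Tnf was 2.9-fold higher with LPS in WT and 5.4-fold in KO (0.89 ± 0.13, adjusted p = 3.2e-05), with WT LPS values of 78915, 80562 and 76243 and IFNg values of 25948 ± 1099 in KO and 27086 ± 835 in WT.
Il10 went the other way, at 4672, 4458 and 5352 with LPS in WT against 1418, 1573 and 1509 in KO (genotype difference -2.45 ± 0.68, adjusted p = 0.026). The IFNg libraries also enter this difference, and the KO IFNg values given above rest on few reads (1 read is 1.69, 0.64 and 1.34). The call ended without KO IFNg replicate 1 or 3, WT IFNg replicate 3 or any 1 of the WT LPS libraries, at log2 values of -2.44, -2.18, -2.0, -2.47, -2.51 and -2.38. Il6 and Il1b, the leading cytokines above, had uncalled genotype differences of 0.68 ± 0.68 and -0.71 ± 0.45 (adjusted p = 0.64 and 0.41). Il6 was called with edgeR, DESeq2, a pseudocount of 25 and the fit of the 12 LPS and IFNg libraries. Il1b was called with edgeR and that fit. Il12b, also uncalled in the main fit, was called wherever Il6 was, at 1.44 in the fit of 12 libraries.

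**Figure D5:**
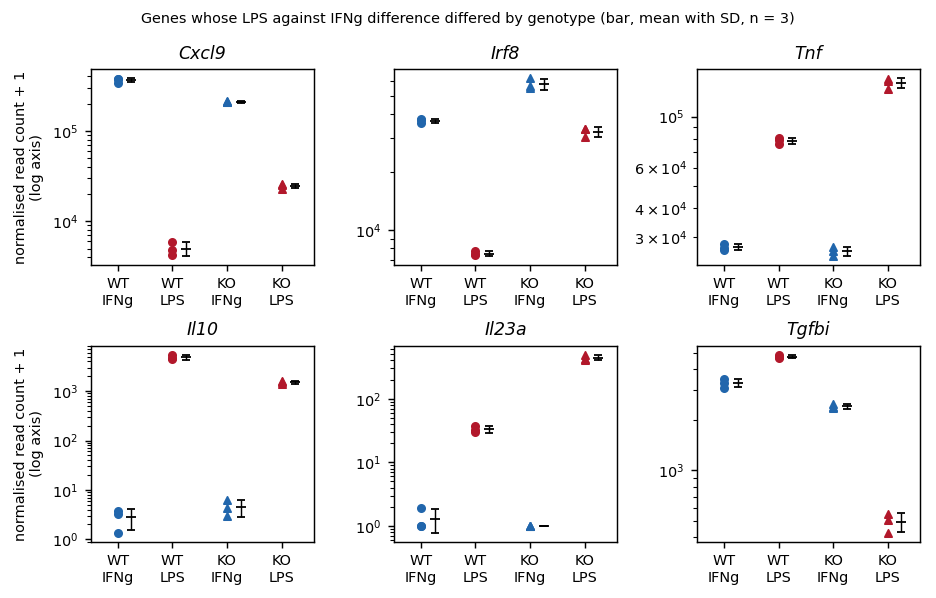
Normalised read count plus 1, on a log axis, of 6 genes in WT (circles) and KO (triangles) macrophages with IFNg (blue) or LPS (red), 3 libraries each, with the mean and SD beside them. Cxcl9 and Irf8 are higher in KO than in WT cells with LPS, Il10 and Tgfbi lower, and Il23a and Tnf higher.

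Tgfbi, an extracellular matrix protein induced by TGF-beta, reversed its order. It was at 4704, 4838 and 4639 with LPS and 3495, 3104 and 3323 with IFNg in WT, higher with LPS, and at 425, 506 and 553 and 2492, 2352 and 2370.3 in KO, lower with LPS (genotype difference -2.8 ± 0.12, adjusted p = 1.3e-13). Vegfa did likewise, with a WT log2 difference of 0.31 ± 0.11 and a KO one of -1.27 ± 0.11 (-1.58 ± 0.15), and so did Lhfpl2, with 0.80 ± 0.06 and -0.94 ± 0.06. The receptor gene Il6ra had a log2 difference of -0.28 ± 0.07 in WT and -1.93 ± 0.07 in KO (-1.65 ± 0.10). Of all genes tested, 3.78% had a positive genotype difference and 3.68% a negative one. Of 24 cytokine receptor genes 2 had a positive genotype difference and 9 a negative one, and of 29 macrophage identity genes 2 and 7. In the opposite sense, the genotype difference was positive for 6 of 37 cell cycle genes and negative for none, among them Mki67 (1.57 ± 0.13), Ccne1, cyclin E1 (1.49 ± 0.27), and Bub1b, a mitotic checkpoint kinase (1.29 ± 0.32). Of 18 costimulatory ligands 7 were positive and 2 negative, with Cd80 at 1.23 ± 0.18 and Cd86 at 0.68 ± 0.13. For the latter, not called different between the agents in KO, WT values were 3396, 3467 and 3994 with LPS and 5671, 6023 and 5818 with IFNg.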

How the data were processed

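RNA was sequenced in 24 libraries, 3 in each of 8 groups. The deposited values are a signal, read counts per gene that the authors divided by 1 factor per library. The values themselves show it, since all of them (100%) were whole multiples of the library's step within 0.05 reads, so whole reads could be recovered. Per the submitters' processing notes, TopHat2 2.2.1, Cufflinks 2.2.1, Cuffdiff and the mouse build mm10 (GRCm38) were used; the counter and its annotation are not given in the sources used here. Positions came from GENCODE M21, which held 42462 of 43629 identifiers.

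Genes whose value reached 1 in 3 or more libraries were tested. Values as log2(value + 1) were fitted with limma 3.58.1 in R 4.3.3, with 1 mean per group over 24 libraries and a mean-variance trend, after a check on simulated data. That check required changes planted in well-expressed genes to be recovered with the right sign, and it set no limit on false calls. Log2 differences are on the log2(value + 1) scale, which can understate low genes, and overstates some with a 0 in the shallow KO LPS replicate 1. Calls use a Benjamini-Hochberg adjusted p below 0.05, two-sided. On the recovered reads, edgeR 4.0.16 called 3896 genes higher and 4110 lower with LPS, and DESeq2 1.42.0 was a further alternative. Other alternatives were pseudocounts, filters, fewer libraries, library weights, median centring, the replicate block and leaving out each library. Folds are ratios of means, and against a group without a read use 3 reads over the group.

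Named genes were Cited2, Lyz2, 16 preset markers, the 12 largest differences of either direction and the 8 largest genotype differences of either sign (called with and without KO LPS replicate 1, mean at least 100), the 6 most alike among genes raised by both agents, and up to 4 members per list with the smallest p. Predicted genes, pseudogenes, immunoglobulin segments and small RNA genes were named only within lists, and the largest differences also required values that did not overlap. Other list members, Lhfpl2 and the promoters shown were chosen after their values were seen. The members and lists were chosen with earlier results of these data known. Some named genes are not reported here. No pair of libraries within a group agreed within sampling noise.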

Additional observations from a re-analysis of the deposited data

Results flagged for a closer look

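The LPS against IFNg difference was not the same in the 2 genotypes for 704 genes with a positive and 686 with a negative genotype difference (KO minus WT, limma, adjusted p below 0.05). Each of the genes below passed that test of the difference itself. All values are on the log2 scale with the SE of the fit.

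Among the preset markers, Tnf differed by 0.89, Gbp2 by 0.59, Irf1 by 0.79, Irf8 by 1.48, Cxcl9 by 3.1 and Il10 by -2.45. Il23a differed by 4.03. Pax4, a factor of pancreatic islet development, differed by 3.79 ± 0.92, with 189, 101 and 129 in KO LPS and 0, 11.4 and 13.1 in WT LPS libraries. Gdf11, a TGF-beta family ligand, differed by 3.51 ± 0.96, or 2.97 without KO LPS replicate 1, and Pla1a, a phosphatidylserine phospholipase, by 3.07 ± 0.77, with 509.8 ± 36.7 in KO LPS and 120.3 ± 16.7 in WT LPS libraries. The call of Gdf11 ended without KO IFNg replicate 1, WT IFNg replicate 2 or WT LPS replicate 1 or 2, at 3.05, 2.92, 3.35 and 3.40.
Bcl2l14, a BCL2 relative, differed by 3.77 ± 1.00, or 2.42 without KO LPS replicate 1, and had no read in WT LPS libraries. Rnase6, an antimicrobial ribonuclease, differed by 2.85 ± 0.77, or 1.75 without KO LPS replicate 1, and its call ended without WT LPS replicate 2, at 2.54. Sectm1a differed by 2.84 ± 0.73. The calls of Il23a and Bcl2l14 ended with edgeR and DESeq2. Those of Pax4, Bcl2l14, Gdf11 and Rnase6 ended in the fit of the 12 LPS and IFNg libraries. With a pseudocount of 0.5 the calls of Gdf11 and Sectm1a ended, and with library weights that of Gdf11.

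Tgfbi had the largest negative difference among the genes named by rule, -2.8. Sla, an adaptor that dampens receptor signalling, differed by -2.04 ± 0.20, with 363 ± 89.5 in KO LPS and 774 ± 65.8 in WT LPS libraries. Prokr1 differed by -1.98 ± 0.33, Irf2bpl by -1.9 ± 0.17, and Ptgir, the prostacyclin receptor, by -1.85 ± 0.32. Rhou, a small GTPase, differed by -1.87 ± 0.45, or -1.26 without KO LPS replicate 1. The Rhou call ended in the fit of the 12 LPS and IFNg libraries. Fam83f differed by -1.91 ± 0.57, or -1.08 without KO LPS replicate 1, and its call ended when any 1 of the KO IFNg or WT IFNg libraries or WT LPS replicate 1 or 3 was left out, at values from -2.03 to -1.75. It also ended with edgeR (-1.22), DESeq2 (-1.21), a pseudocount of 0.5 (-2.29) or 25 (-0.05), no filter on low values and that fit of 12 libraries.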

How the results depend on the processing

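No named result that was called in the main fit or in an alternative changed sign between them. Sign changes of differences near 0 that were called in neither fit were not counted. The balance of the counts was reversed in some alternatives. List medians near 0 changed sign, such as complement genes (-0.12, and 0.08 without KO LPS replicate 1) and cytokine receptors (0.02, and -0.13 with edgeR). Of 200 named results of KO LPS against KO IFNg, 185 kept their side of the threshold under all alternatives run, as did 16 of 30 named genotype differences. Fitting only the 6 compared libraries called 2736 genes higher and 2345 lower with LPS (3682 and 4300 in the fit of 24). Higher calls also outnumbered lower ones without KO LPS replicate 1 (4267 and 3905), with DESeq2 (3892 and 3746) and with library weights (4226 and 4079). A fit of only the 12 LPS and IFNg libraries called 369 negative genotype differences (686). Library weights called 1191 positive genotype differences (704). Leaving out 1 library at a time gave 3404 to 4267 genes higher and 3894 to 4699 lower with LPS, 531 to 948 positive and 525 to 1073 negative genotype differences. The highest negative count was that without KO LPS replicate 2, against 703 positive. Negative also outnumbered positive genotype differences without KO LPS replicate 3 (990 and 753), and narrowly without KO IFNg replicate 1 or WT LPS replicate 1 or 2. In the replicate block, with the replicate number as a term, 3654 genes were higher and 4254 lower, with 651 positive and 626 negative genotype differences, and 1 named result, which is not reported here, lost its call. Same-numbered libraries correlated at 0.15, 0.37 and -0.09 over 5747 genes, and libraries with different numbers at -0.40 to 0.20. These values are deviations from group means that include the shallow KO LPS replicate 1, so they cannot decide whether the numbers pair the samples. Low genes are limited by KO LPS replicate 1, where 3 reads equal 70.9.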
